A study of Mus musculus with 12 samples.

Results

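Chemokines are small secreted proteins that guide the movement of leukocytes and other cells by binding G protein-coupled receptors, and interleukin 6 is a secreted cytokine that acts through the gp130 receptor subunit. Fibroblasts are a major source of both: they make Cxcl12 in the resting state and add others when NF-kB, interferon or serum signals reach them. The genes described here are the CXC chemokines Cxcl12, Cxcl1, Cxcl5, Cxcl10 and Ppbp, the CC chemokines Ccl2, Ccl5 and Ccl7, the CX3C chemokine Cx3cl1, and Il6. They were taken by their platform gene symbols, 10 of 16590 named genes on the array, and 9 of them were among the 8891 genes that passed the detection filter and were tested. Il6 did not pass it.

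The cells were mouse embryonic fibroblasts from female C57BL/6 embryos, immortalized with the SV40 large T antigen, so all groups share that oncogene. Cells of the YYFF clone have the YYFF mutation in β1 integrin and, per the labels' protocols, cannot complete cytokinesis while they adhere through β1 integrins alone. Cells of the WT clone have wild-type β1 integrin. Both were measured before laminin (YYFF L0, WT L0), after 4 rounds of plating on laminin (YYFF L4, WT L4) and after 8 rounds (YYFF L8, WT L8), with growth on plastic afterwards and 2 arrays in each of the 6 groups. The title of the series gives aneuploidy and gene expression as the subject. Each genotype is a single clone, so genotype and clone cannot be told apart, nor can laminin rounds and time in culture. Whether the 2 arrays of a group come from separate cultures is not said in the labels, so the spread behind each p-value is that of these samples alone and may be technical. In RNA from whole cultures, fewer cells making a transcript and less of it per cell cannot be told apart.

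Arrays held a total signal of 13197182 to 17683779, and 40.4% to 45.8% of the probes were above background (a detection p under 0.05). Of the 11 fibroblast markers on the array, 8 were above background on all 12 arrays. Col1a2 was not above background in WT L4 or WT L8, Pdgfra was above it on 1 of 2 arrays in YYFF L4 and in YYFF L8, and Thy1 was above it on no array. Among leukocyte genes, Ptprc, Adgre1 and Itgam were above background on no array, while Cd14 was above it on all 12 and Cd3e on 3. Among endothelial genes, Pecam1 and Cdh5 were above it on no array and Tek on 4.

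Sequences around the gene starts are shown because NF-kB, AP-1 and interferon-activated factors are known to act on chemokine genes through short motifs there. RefSeq promoter sequence of build GRCm38.p6, from 250 bases before to 50 bases after the start, was found for 6 of the 10 genes (Cxcl12, Cxcl1, Cxcl10, Ppbp, Cx3cl1 and Il6). Cxcl5, Ccl2, Ccl5 and Ccl7 are named only. In the lines below, read 5′ to 3′ along the strand of the gene, capitals mark matches to any of 6 motifs searched on both strands: the kappaB site, the interferon response core GAAANNGAA, the AP-1 site TGANTCA, the GAS element TTCNNNGAA, the C/EBP site TTNNGNAAT and the TATA box TATAAA. Cxcl12 lies at chr6:117168285-117168584 (plus strand), Cxcl1 at chr5:90890995-90891294 (plus strand), Cxcl10 at chr5:92348840-92349139 (minus strand), Ppbp at chr5:90768268-90768567 (plus strand) and Il6 at chr5:30012864-30013163 (plus strand).
Cxcl12: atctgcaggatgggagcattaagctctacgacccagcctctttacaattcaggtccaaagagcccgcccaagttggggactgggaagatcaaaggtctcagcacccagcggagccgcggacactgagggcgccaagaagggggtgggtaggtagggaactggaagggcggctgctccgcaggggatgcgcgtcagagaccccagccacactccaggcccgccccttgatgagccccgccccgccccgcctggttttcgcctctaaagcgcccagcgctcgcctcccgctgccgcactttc
Cxcl1: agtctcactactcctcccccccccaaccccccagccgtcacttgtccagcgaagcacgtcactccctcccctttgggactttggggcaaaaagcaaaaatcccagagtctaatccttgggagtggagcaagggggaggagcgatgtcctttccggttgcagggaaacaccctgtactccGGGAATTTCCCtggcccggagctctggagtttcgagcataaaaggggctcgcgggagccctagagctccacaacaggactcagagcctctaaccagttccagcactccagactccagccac
Cxcl10: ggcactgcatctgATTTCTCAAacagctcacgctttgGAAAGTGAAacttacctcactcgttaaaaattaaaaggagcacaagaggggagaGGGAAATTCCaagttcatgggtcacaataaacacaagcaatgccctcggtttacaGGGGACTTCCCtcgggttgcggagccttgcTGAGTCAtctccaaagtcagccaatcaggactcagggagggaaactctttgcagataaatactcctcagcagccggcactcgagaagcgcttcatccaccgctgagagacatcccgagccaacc
Ppbp: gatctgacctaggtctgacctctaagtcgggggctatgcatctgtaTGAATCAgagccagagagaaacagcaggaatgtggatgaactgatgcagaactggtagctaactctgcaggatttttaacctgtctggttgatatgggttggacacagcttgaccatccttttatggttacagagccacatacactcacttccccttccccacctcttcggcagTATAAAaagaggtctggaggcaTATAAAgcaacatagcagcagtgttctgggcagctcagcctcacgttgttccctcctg
Il6: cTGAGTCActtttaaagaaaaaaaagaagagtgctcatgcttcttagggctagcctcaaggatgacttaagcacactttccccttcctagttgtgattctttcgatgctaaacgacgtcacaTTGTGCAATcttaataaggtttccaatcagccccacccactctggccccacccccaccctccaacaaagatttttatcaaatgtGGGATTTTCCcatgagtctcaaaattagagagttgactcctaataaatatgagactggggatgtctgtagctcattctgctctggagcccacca

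The Cxcl1 window held overlapping kappaB matches on both strands, read as 1 run of capitals from base -71 to base -61. Cxcl10 held kappaB matches from base -159 to -150 and, overlapping each other, from -104 to -94, an interferon response core at -213, an AP-1 match at -74 and a C/EBP match at -237. Il6 held a kappaB match at -44, a C/EBP match at -128 and an AP-1 match at -249. Ppbp held an AP-1 match at -204 and TATA boxes at -30 and -8, Cx3cl1 held a TATA box at -6, and the Cxcl12 window held none of the 6 motifs. Matches to the kappaB site and to the AP-1 site were each in 3 of these 6 windows, to the C/EBP site and the TATA box in 2 each, to the interferon response core in 1 and to the GAS element in 0. Over all 32851 RefSeq windows of this length, the shares with a match were 8.46% for the kappaB site, 7.81% for AP-1, 11.5% for C/EBP, 13.6% for the TATA box, 8.56% for the interferon response core and 8.3% for GAS. These are matches of letters only, and say nothing of which factors bind.

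The members did not move as a block. They were chosen with earlier results of these data known, so their counts beside the shares over all genes are a description only. Values are normalized log2 signals, changes are log2 differences ± SE from limma, n is 2 arrays in every group, and a change was called at an adjusted p (Benjamini-Hochberg over 8891 genes) under 0.05. In YYFF L4 against YYFF L0, 3 of the 9 tested members were higher and 4 lower, where over all tested genes 14.4% were higher and 17.2% lower. In YYFF L8 against YYFF L0, 2 were higher and 5 lower, with 17.1% and 19.3% over all genes. In YYFF L8 against YYFF L4, 0 were higher and 3 lower, with 0.405% and 1.03% over all genes. At an unadjusted p under 0.05, 4 members passed in that last comparison.

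The WT clone gave another distribution of directions. In WT L4 against WT L0, 5 members were higher and 0 lower, with 7.49% and 7.99% over all genes, and 6 members passed at an unadjusted p under 0.05. In WT L8 against WT L0, 4 were higher and 2 lower, with 18.4% and 17.7% over all genes. In WT L8 against WT L4, 3 were higher and 2 lower, with 10.8% and 8.86% over all genes. The median change of the 9 members was -0.75 in YYFF L8 against YYFF L0 and 0.61 in WT L8 against WT L0, beside medians of 0.03 and 0.00 over all genes. The L4 and L8 changes of a clone share its L0 arrays and are not independent of each other.

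Between the clones, 3 members were higher and 2 lower in YYFF L0 than in WT L0, with 14.7% and 12.2% over all genes. In YYFF L4 against WT L4, 1 was higher and 6 lower, with 18.2% and 19.7% over all genes. In YYFF L8 against WT L8, 3 were higher and 6 lower, with 17.2% and 19.8% over all genes, so all 9 tested members were called there. With only the compared arrays fitted, 7 were called. The change over 4 rounds differed between the clones (an interaction term, the YYFF change minus the WT change) for 5 members, 0 more positive and 5 more negative in YYFF, with 10.3% and 13.4% over all genes. For the change over 8 rounds the term was called for 7 members, 1 more positive and 6 more negative in YYFF, with 14.4% and 17.5% over all genes.

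**Figure D1:**
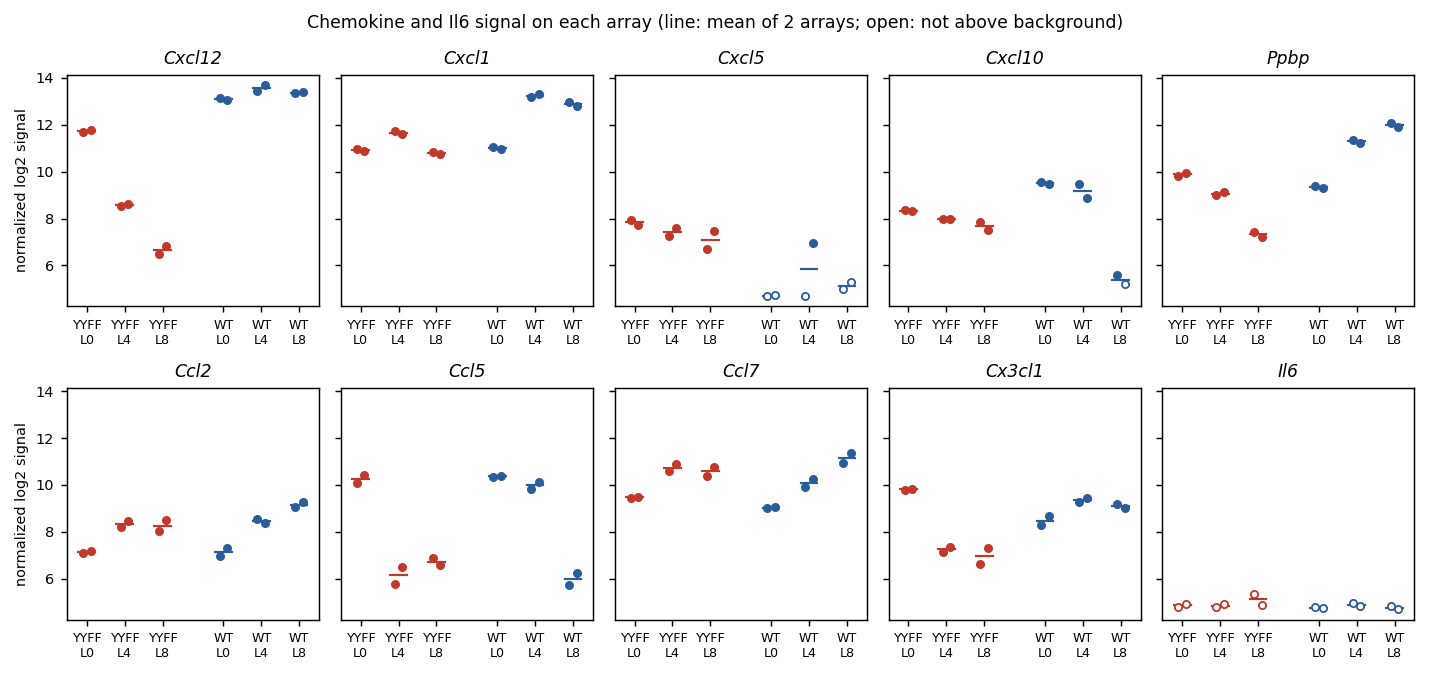
Normalized log2 signal (vertical axis) of the tested probe of 9 chemokine genes and of the probe of Il6 on each array, with the YYFF groups left of the WT groups. Points are arrays, lines are means of 2 arrays and open points are not above background. Cxcl12 in YYFF lies at 11.67 and 11.78 at L0 and at 6.47 and 6.83 at L8, while all WT arrays lie between 13.07 and 13.69.

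Cxcl12, also called SDF-1, is a constitutively made chemokine that holds stem cells and leukocytes in tissues through its receptor Cxcr4. It was lower after 4 and after 8 rounds than before laminin in the YYFF clone, and its brightest probe had no called change in the WT clone. Its signal was 11.67 and 11.78 in YYFF L0, 8.53 and 8.63 in YYFF L4, and 6.47 and 6.83 in YYFF L8. It was 13.13 and 13.07 in WT L0, 13.43 and 13.69 in WT L4, and 13.34 and 13.39 in WT L8. The 6 groups did not overlap, and every YYFF array was below every WT array. Cxcl12 was above background on all 12 arrays.

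The Cxcl12 change was -3.15 ± 0.14 in YYFF L4 against YYFF L0 (adjusted p = 4.52e-07) and -5.08 ± 0.14 in YYFF L8 against YYFF L0 (3.75e-08), an 8.88-fold and a 33.8-fold lower signal. The difference of YYFF L8 minus YYFF L4 was -1.93 ± 0.14 (adjusted p = 0.000331, and 0.0972 when only those 4 arrays were fitted). In WT the differences were 0.46 ± 0.14 at L4 (adjusted p = 0.0586) and 0.26 ± 0.14 at L8 (0.18). The L4 difference passed in WT without background correction (adjusted p = 0.0242), with an offset of 50 (0.027) and with the authors' processed values (0.0189). It also passed with a stricter detection filter (0.0428), with an intensity trend (0.0144) and without either YYFF L8 array, but not in every setting. The clones already differed before laminin, with -1.37 ± 0.14 (YYFF L0 against WT L0, 0.000128), and the gap was -4.98 ± 0.14 at L4 (3.35e-08) and -6.72 ± 0.14 at L8 (2.05e-08), where YYFF L8 was 105-fold lower than WT L8 by this probe.

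Cxcl12 has 5 probes on the array, and 3 were detected. The second probe gave 9.42 and 9.43 in YYFF L0, 6.59 and 6.54 in YYFF L4, and 5.84 and 5.16 in YYFF L8, against 10.02 and 9.85 in WT L0, 10.80 and 10.14 in WT L4, and 10.84 and 10.72 in WT L8. All 3 probes were lower in YYFF L8 than in YYFF L0. In a fit of all 12974 detected probes the second changed by -3.92 ± 0.24 (adjusted p = 3.65e-06), with 1 of 2 YYFF L8 arrays above background. The third probe was not above background in YYFF L8 and was at least 10.6-fold lower there than in YYFF L0 (9.32e-07). The further difference of YYFF L8 minus YYFF L4 was not called for the second probe (-1.06 ± 0.24, adjusted p = 0.0905) or the third (-0.99 ± 0.19, 0.055), so that step rests on the brightest probe. In YYFF L8 against WT L8 the second probe differed by -5.28 ± 0.24 (6.61e-07), and the third was at least 28.9-fold lower (1.43e-07). In WT L8 against WT L0 the second and the third probe rose by 0.85 ± 0.24 (adjusted p = 0.0262) and 0.70 ± 0.19 (0.0211), where the brightest probe differed by 0.26 ± 0.14 (0.199). Before laminin the clone difference was -0.51 ± 0.24 for the second probe (adjusted p = 0.173) and -0.74 ± 0.19 for the third (0.0226). The other 2 probes were above background on 0 arrays.

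**Figure D2:**
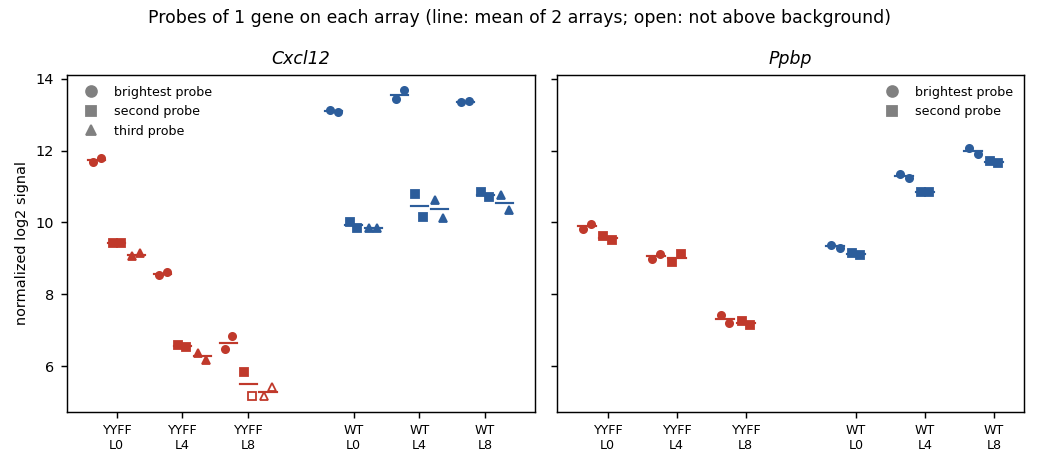
Normalized log2 signal (vertical axis) of the detected probes of Cxcl12 (3) and Ppbp (2) on each array, by group, YYFF left of WT. Points are arrays, lines are means of 2 arrays and open points are not above background. In every probe the signal in YYFF L8 lies below that in YYFF L0, for example 7.27 and 7.13 against 9.61 and 9.52 for the second Ppbp probe.

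Cxcl1, Cxcl5 and Ppbp (platelet basic protein, also called Cxcl7) belong to the CXC chemokines that attract neutrophils through Cxcr2. Cxcl1 and Ppbp rose with laminin rounds in WT and diverged from WT in YYFF. Cxcl1 read 10.96 and 10.87 in YYFF L0, 11.71 and 11.61 in YYFF L4, and 10.86 and 10.73 in YYFF L8. The WT values were 11.04 and 10.97 at L0, 13.18 and 13.30 at L4, and 12.98 and 12.81 at L8. The L0 arrays of both clones lay close together, and the WT L4 and WT L8 arrays lay above all others.

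In WT, Cxcl1 rose by 2.24 ± 0.11 at L4 (adjusted p = 2.91e-06) and by 1.89 ± 0.11 at L8 (3.26e-06). In YYFF it rose by 0.75 ± 0.11 at L4 (0.000699) and differed by -0.12 ± 0.11 at L8 (0.42). It was lower in YYFF L8 than in YYFF L4 (-0.87 ± 0.11, 0.00613). That call was lost without YYFF L4 replicate 1 (a change of -0.82), with median scaling (adjusted p = 0.0765) and with only the compared arrays fitted (0.195). The difference of -0.35 ± 0.11 in WT L8 against WT L4 missed the threshold (0.0507). It passed without background correction (0.0374), with an offset of 50 (0.0355) and with the authors' processed values (0.0386). It also passed with an intensity trend (0.0106) and without either YYFF L8 array, but not in every setting. YYFF L0 and WT L0 differed by -0.09 ± 0.11 (0.595), while YYFF minus WT was -1.58 ± 0.11 at L4 (4.99e-06) and -2.10 ± 0.11 at L8 (1e-06).

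Ppbp moved in opposite directions in the clones. It read 9.82 and 9.96 in YYFF L0, 8.98 and 9.13 in YYFF L4, and 7.43 and 7.21 in YYFF L8. WT arrays gave 9.38 and 9.30 at L0, 11.34 and 11.23 at L4, and 12.09 and 11.91 at L8. All 6 groups were apart, with the order WT L8, WT L4, YYFF L0, WT L0, YYFF L4 and YYFF L8 from high to low. Ppbp changed by -0.83 ± 0.12 in YYFF L4 (adjusted p = 0.000798) and -2.57 ± 0.12 in YYFF L8 (5.33e-07), each against YYFF L0. In WT it rose by 1.95 ± 0.12 at L4 (1.4e-05) and 2.66 ± 0.12 at L8 (9.57e-07), and it was 0.71 ± 0.12 higher in WT L8 than in WT L4 (0.00411). In YYFF L8 against YYFF L4 it changed by -1.74 ± 0.12 (0.000331, and 0.0972 when only those 4 arrays were fitted).

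YYFF L8 held 25.6-fold less Ppbp signal than WT L8 (-4.68 ± 0.12, adjusted p = 2.85e-08), and the gap at L4 was -2.23 ± 0.12 (1.37e-06). Before laminin YYFF was higher by 0.55 ± 0.12 (0.00974), which was not called without YYFF L0 replicate 2 (0.0703), without WT L0 replicate 2 (0.0588) or with median scaling (0.166). The second Ppbp probe changed by -2.37 ± 0.11 in YYFF L8 and 2.55 ± 0.11 in WT L8, each against L0. Ppbp is made in quantity by megakaryocytes, and of the 6 megakaryocyte and platelet markers on the array 3 (Gp5, Gp9 and Treml1) were above background on no array and 0 on all 12. Their summed log2 signal was 7.67 to 7.83 at L0, 7.89 to 7.96 at L4 and 8.00 to 8.17 at L8 in YYFF, against 7.78 to 7.83 at L0, 7.99 to 8.03 at L4 and 8.08 to 8.15 at L8 in WT. Both tested markers of this list had called changes. Itga2b rose in WT L8 against WT L0 by 0.95 ± 0.20 (0.00569) and was lower in YYFF L8 than in WT L8 (-0.88 ± 0.20, 0.0076), as Ppbp was. Gp1bb went against Ppbp: it was at least 1.49-fold higher in YYFF L4 than in YYFF L0 (0.00319) and at least 1.32-fold higher in YYFF L4 than in WT L4 (0.000351). The part of either in the Ppbp result was not tested. The neighbouring gene Pf4, another platelet chemokine, was above background on 0 arrays.

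Cxcl5 was detected on every YYFF array and on 1 WT array. It read 7.94 and 7.74 in YYFF L0, 7.24 and 7.58 in YYFF L4, and 6.71 and 7.48 in YYFF L8. The WT arrays read 4.70 and 4.73 at L0, 4.70 and 6.96 at L4, and 5.0004 and 5.28 at L8. The WT array above background was WT L4 replicate 2, which lay within the range of YYFF L8, and the other WT arrays were below all YYFF arrays. YYFF L0 was at least 4.92-fold higher than WT L0 (adjusted p = 0.0041), and YYFF L8 at least 3.00-fold higher than WT L8 (0.0269). The L8 call was lost when YYFF L8 replicate 2 (a difference of 1.57), WT L8 replicate 1 (1.81) or WT L8 replicate 2 (2.09) was left out. It was also lost without the detection filter (adjusted p = 0.0544).

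Other tests of Cxcl5 depended on the 2 WT L4 arrays, which lay far apart, and in part on the processing. YYFF L4 against WT L4 was 1.58 ± 0.58 (adjusted p = 0.0597) and became 2.71 without WT L4 replicate 2. With both arrays kept it passed in some settings and not in others. It passed with median scaling (0.00921), without background correction (0.0354), with the authors' processed values (0.0375) and with an intensity trend (0.0248). WT L4 against WT L0 was 1.11 ± 0.58 (0.247) and became 2.24 (0.00318) without WT L4 replicate 1. WT L8 against WT L4 became -1.81 (0.00747) and the clone difference in the L4 change -2.67 (0.00224) when that same array was left out. YYFF L8 against YYFF L0 was -0.75 ± 0.58 (0.361), and 0.044 without either WT L4 array. The clone difference in the L8 change was -1.17 (0.317), and 0.0348 without either of them. No change of Cxcl5 with laminin rounds was called within a clone when all 12 arrays were fitted.

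In the RefSeq gene order of chromosome 5, Cxcl5 and Ppbp are direct neighbours and Cxcl1 lies further on in the same cluster, beside Cxcl15 and Cxcl2. The neighbours did not share a pattern: Cxcl5 was above background in all YYFF groups, whereas Ppbp was highest in WT L8. Cxcl2 and Cxcl3, the close relatives of Cxcl1, were above background on 0 arrays. Cxcl15, an epithelial chemokine of the mouse lung, was above background on both arrays of YYFF L0 and WT L8 and on 1 of 2 in WT L0 and WT L4. It rose by 1.85 ± 0.20 in WT L8 against WT L0 (adjusted p = 0.000134) and was at least 1.17-fold lower in YYFF L8 than in YYFF L0 (0.00198).

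Cxcl10 and Ccl5 (RANTES) are chemokines that draw activated T cells, and both are classic interferon-inducible genes. Both were high in WT L0 and WT L4 and low in WT L8, and in YYFF they parted. Cxcl10 read 8.38 and 8.30 in YYFF L0, 7.98 and 8.00 in YYFF L4, and 7.87 and 7.51 in YYFF L8. Values in WT were 9.54 and 9.49 at L0, 9.47 and 8.89 at L4, and 5.60 and 5.19 at L8. The WT L8 arrays were below all others, and WT L8 replicate 2 was not above background.

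In WT, Cxcl10 fell at L8, with a change of -4.12 ± 0.21 against WT L0 (adjusted p = 1.63e-06) and of -3.78 ± 0.21 against WT L4 (5.88e-06). The step to WT L4 was -0.34 ± 0.21 (0.325). In YYFF, Cxcl10 differed by -0.35 ± 0.21 at L4 (0.235) and by -0.65 ± 0.21 at L8 (0.0344). The L8 call was lost without either YYFF L0 array, either YYFF L4 array or YYFF L8 replicate 2 (a change of -0.47). It was also lost without the detection filter (adjusted p = 0.0583). YYFF minus WT was -1.18 ± 0.21 at L0 (0.00292), -1.19 ± 0.21 at L4 (0.00172) and 2.29 ± 0.21 at L8 (3.39e-05), so the order of the clones was turned at L8.

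Ccl5 read 10.10 and 10.41 in YYFF L0, 5.79 and 6.51 in YYFF L4, and 6.88 and 6.59 in YYFF L8. Among WT arrays it was 10.35 and 10.37 at L0, 9.84 and 10.14 at L4, and 5.74 and 6.24 at L8. The YYFF L0, WT L0 and WT L4 arrays formed a high range and the other 3 groups a low one, with a gap between them. All 12 arrays were above background, but some low ones only just. The detection p was 0.0338 in YYFF L4 replicate 1, and 0.0288 and 0.0150 in WT L8 replicates 1 and 2. Folds against these groups thus rest on dim signals. Ccl5 thus fell after 4 rounds in YYFF (-4.11 ± 0.25, adjusted p = 3.45e-06, 17.2-fold lower) and after 8 rounds in WT (-4.37 ± 0.25 against WT L0, 3.85e-06, 20.7-fold lower). The change in WT L8 against WT L4 was -4.00 ± 0.25 (1.72e-05), while WT L4 and WT L0 differed by -0.37 ± 0.25 (0.384). In YYFF L8 the change was -3.52 ± 0.25 against YYFF L0 (8.13e-06) and 0.58 ± 0.25 against YYFF L4 (0.302).

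The clones did not differ in Ccl5 beyond their spread at L0 (-0.11 ± 0.25, adjusted p = 0.805), and YYFF minus WT was -3.84 ± 0.25 at L4 (4.64e-06). At L8 YYFF was higher by 0.74 ± 0.25 (0.0472). That call was lost without either YYFF L0 array, either WT L0 array or either WT L4 array. It was lost too without YYFF L8 replicate 1 (a difference of 0.60), YYFF L8 replicate 2 (0.89) or WT L8 replicate 1 (0.50). Among processings, it was lost with median scaling (adjusted p = 0.0761), without background correction (0.052) and with the authors' processed values (0.0522). The same held without the detection filter (0.0842) and with only the compared arrays fitted (0.0681). In the RefSeq order Ccl5 stands beside Ccl9 on chromosome 11. Ccl9, another CC chemokine, was above background on both arrays of YYFF L4, YYFF L8 and WT L8 and on none of the other arrays. It was at least 2.17-fold higher in YYFF L8 than in YYFF L0 (0.00712) and at least 3.20-fold higher in WT L8 than in WT L0 (0.000512).

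Regulators of the interferon response were counted from a list of 13 tested genes. In YYFF L8 against YYFF L0, 8 were lower and 0 higher, with a median of -0.72, and in WT L8 against WT L0, 4 were lower and 0 higher, with a median of -0.11. Over all tested genes, 19.3% were lower and 17.1% higher in YYFF L8, and 17.7% were lower and 18.4% higher in WT L8, with the medians near 0 given above. Irf9, the DNA-binding subunit of the factor that interferon activates, read 10.68 to 10.78 at L0, 7.73 to 7.81 at L4 and 7.66 to 7.75 at L8 in YYFF. Its WT signal was 10.77 to 10.82 at L0, 10.53 to 10.70 at L4 and 8.42 to 8.66 at L8. Irf9 was low in the same 3 groups as Ccl5. Its change was -3.02 ± 0.11 in YYFF L8 (adjusted p = 1.39e-07) and -2.25 ± 0.11 in WT L8 (1.78e-06), each against L0. Irf7, which drives type I interferon genes, was at least 4.14-fold lower in YYFF L8 (2.15e-06) and at least 2.60-fold lower in WT L8 (2.26e-05). The RNA sensor Ddx58 changed by -2.36 ± 0.31 in YYFF L8 (0.000381) and -2.54 ± 0.31 in WT L8 (0.000318). It was above background on 1 of 2 YYFF L8 arrays, which read 5.80 and 7.04. Stat2 changed by -1.17 ± 0.26 in YYFF L8 (0.00737) and -2.50 ± 0.26 in WT L8 (0.000126).

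Ccl2 (MCP-1) and Ccl7 (MCP-3) recruit monocytes through Ccr2 and are direct neighbours on chromosome 11. Both were higher after 4 and after 8 rounds than before laminin in both clones. Between YYFF L8 and YYFF L4 no further rise was seen (Ccl2 -0.06 ± 0.18, adjusted p = 0.911, and Ccl7 -0.16 ± 0.19, 0.729). Ccl2 read 7.11 and 7.19 in YYFF L0, 8.21 and 8.44 in YYFF L4, and 8.02 and 8.51 in YYFF L8. WT cells gave 6.98 and 7.31 at L0, 8.53 and 8.36 at L4, and 9.05 and 9.26 at L8. The L0 arrays of both clones overlapped and lay below all L4 and L8 arrays, and WT L8 was highest.

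Ccl2 rose by 1.18 ± 0.18 in YYFF L4 (adjusted p = 0.00115) and 1.12 ± 0.18 in YYFF L8 (0.00136), and by 1.30 ± 0.18 in WT L4 (0.00175) and 2.01 ± 0.18 in WT L8 (5.46e-05), each against L0. The further rise in WT L8 against WT L4, 0.71 ± 0.18 (0.0256), was lost without WT L4 replicate 1 (0.0594), WT L4 replicate 2 (0.12), WT L8 replicate 1 (0.0601) or WT L8 replicate 2 (0.148). The clones differed by 0.00 ± 0.18 at L0 (0.995) and -0.12 ± 0.18 at L4 (0.656), and YYFF L8 minus WT L8 was -0.89 ± 0.18 (0.00449).

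Ccl7 read 9.45 and 9.49 in YYFF L0, 10.58 and 10.90 in YYFF L4, and 10.39 and 10.77 in YYFF L8. The WT signal was 9.01 and 9.05 at L0, 9.93 and 10.25 at L4, and 10.94 and 11.34 at L8. As with Ccl2, both L0 groups were lowest and WT L8 was highest, and YYFF L4 and YYFF L8 overlapped. It rose by 1.27 ± 0.19 in YYFF L4 (adjusted p = 0.000865), 1.11 ± 0.19 in YYFF L8 (0.00166), 1.05 ± 0.19 in WT L4 (0.00621) and 2.10 ± 0.19 in WT L8 (4.92e-05), each against L0, and by 1.05 ± 0.19 in WT L8 against WT L4 (0.00509).

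The clone differences of Ccl7 were small and depended on single arrays, and at L8 also on the processing. YYFF and WT differed by 0.44 ± 0.19 at L0 (adjusted p = 0.123). YYFF was higher by 0.65 ± 0.19 at L4 (0.0228), a call lost without YYFF L4 replicate 2 (0.148) or WT L4 replicate 1 (0.129). YYFF minus WT was -0.56 ± 0.19 at L8 (0.0449), a call lost without either YYFF L0 array or either WT L0 array. It was lost too without YYFF L8 replicate 1 (a difference of -0.37) or WT L8 replicate 2 (-0.35). The same held without the detection filter (adjusted p = 0.0721) and with only the compared arrays fitted (0.128).

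Leukocyte markers were set beside Ccl2 and Ccl7. Of 9 leukocyte markers on the array, 7 were above background on no array, among them Ptprc, Adgre1, Itgam and Lyz2, and Cd14 was above background on all 12. Cd14, a coreceptor for lipopolysaccharide, rose by 1.96 ± 0.15 in YYFF L8 (adjusted p = 1.38e-05) and by 0.67 ± 0.15 in WT L8 (0.00852), each against L0. It rose more in YYFF (clone difference 1.29 ± 0.22, 0.00215), where Ccl2 and Ccl7 rose more in WT. The other tested marker, the T cell gene Cd3e, was above background on both YYFF L0 arrays (mean 5.50) and on neither YYFF L4 array (4.83). It was called lower in YYFF L4 (0.0323), but the signal was too dim to set a bound on the fold. Its other changes were not called. The summed log2 signal of the 9 markers was 8.60 to 8.65 at L0, 9.41 to 9.47 at L4 and 9.55 to 9.69 at L8 in YYFF, against 8.73 to 8.77 at L0, 8.95 to 9.19 at L4 and 9.04 to 9.11 at L8 in WT. The part of these markers in the Ccl2 and Ccl7 results was not tested.

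Cx3cl1 (fractalkine) is made as a membrane-bound chemokine that can hold monocytes and is shed as a soluble form. Before laminin it was higher in YYFF than in WT, and after 4 or 8 rounds the order was turned. It read 9.79 and 9.85 in YYFF L0, 7.16 and 7.36 in YYFF L4, and 6.61 and 7.33 in YYFF L8. WT readings were 8.30 and 8.67 at L0, 9.28 and 9.44 at L4, and 9.17 and 9.01 at L8. YYFF L0 was above every other group, and YYFF L4 and YYFF L8 overlapped below every WT array.

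In YYFF, Cx3cl1 changed by -2.56 ± 0.22 at L4 (adjusted p = 3.04e-05) and -2.85 ± 0.22 at L8 (1.26e-05), a 5.89-fold and a 7.22-fold lower signal than at L0. In WT it rose by 0.88 ± 0.22 at L4 (0.0282). That call was lost without WT L0 replicate 1 (a change of 0.69), WT L4 replicate 1 (0.96) or WT L4 replicate 2 (0.79). It was also lost with only the compared arrays fitted (adjusted p = 0.061). At L8 the WT difference was 0.61 ± 0.22 (0.058). It passed without background correction (0.0234), with an offset of 50 (0.028) and with the authors' processed values (0.0306). It also passed with only the compared arrays fitted (0.0471) and without either YYFF L8 array, but not in every setting. The clone gap was 1.34 ± 0.22 at L0 (0.00213), -2.10 ± 0.22 at L4 (8.95e-05) and -2.12 ± 0.22 at L8 (8.49e-05). Cx3cl1 lies between Ccl22 and Ccl17 on chromosome 8, and both neighbours were above background on 0 arrays.

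**Figure D3:**
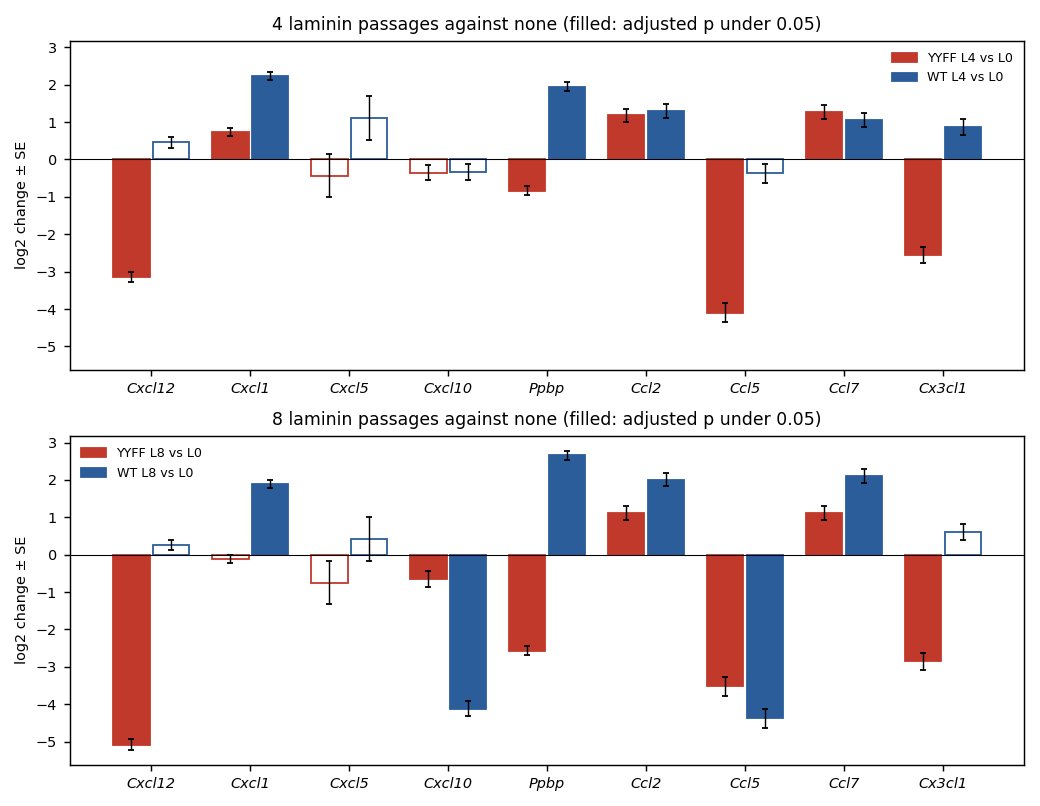
Log2 change ± SE (vertical axis) of the 9 tested chemokine genes after 4 (upper panel) and 8 (lower panel) laminin rounds against none, YYFF left of WT for each gene. Filled bars passed an adjusted p of 0.05. Ppbp stands at -2.57 in YYFF and 2.66 in WT after 8 rounds, while Ccl2 and Ccl7 are above 0 in all 4 comparisons.

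**Figure D4:**
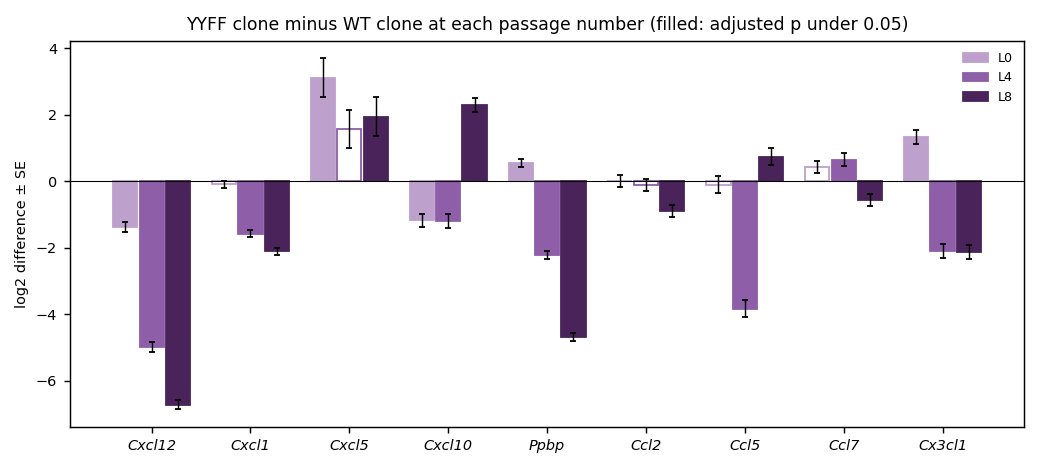
Log2 difference ± SE (vertical axis) of the YYFF clone minus the WT clone for the 9 tested chemokine genes at L0, L4 and L8, filled where the adjusted p was under 0.05. The Cxcl12 gap is -1.37, -4.98 and -6.72 at L0, L4 and L8, and the Cxcl10 gap is -1.18, -1.19 and 2.29.

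The interaction terms give the tests of these clone differences. Over 4 rounds, the YYFF change minus the WT change was -3.61 ± 0.20 for Cxcl12 (adjusted p = 3.45e-06), -3.73 ± 0.36 for Ccl5 (9.92e-05) and -3.43 ± 0.31 for Cx3cl1 (7.01e-05). It was -2.78 ± 0.17 for Ppbp (7.11e-06) and -1.49 ± 0.15 for Cxcl1 (0.000129). Over 8 rounds it was -5.34 ± 0.20 for Cxcl12 (3.51e-07), -5.23 ± 0.17 for Ppbp (2.87e-07), -3.46 ± 0.31 for Cx3cl1 (5.07e-05) and -2.01 ± 0.15 for Cxcl1 (1.72e-05). Cxcl10 was the only member with a called positive term, 3.47 ± 0.29 (3.31e-05). The Ccl5 term of 0.85 ± 0.36 was not called at L8 (0.106).

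Smaller terms were called at L8 for Ccl2 and Ccl7. The Ccl2 term was -0.89 ± 0.26 (adjusted p = 0.0282), a call lost when the fit left out YYFF L0 replicate 1 (0.0599), YYFF L0 replicate 2 (0.0835), YYFF L8 replicate 1 (0.07), WT L0 replicate 1 (0.0936) or WT L8 replicate 2 (0.0915). The Ccl7 term was -0.99 ± 0.27 (0.0203), a call lost when the fit left out YYFF L0 replicate 1 (0.0518), YYFF L0 replicate 2 (0.0604), YYFF L8 replicate 1 (0.0599), WT L0 replicate 1 (0.0566) or WT L8 replicate 2 (0.0708).

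Il6 itself was not above background on any of the 12 arrays. Its single probe lay between 4.71 and 5.35, and its lowest detection p was 0.0789, so Il6 had no signal above background in any group and no comparison was made. Of 7 other ligands that signal through gp130, 3 were tested. Ctf1, cardiotrophin 1, split the clones: the YYFF means were 8.96 at L0, 5.19 at L4 and 5.26 at L8, against WT means of 8.06 at L0, 9.09 at L4 and 9.35 at L8 (log2 signals). The YYFF L4 and YYFF L8 arrays were not above background. Ctf1 was at least 9.61-fold lower in YYFF L8 than in YYFF L0 (adjusted p = 2.9e-07) and rose by 1.29 ± 0.16 in WT L8 against WT L0 (0.000325). Il11 was at least 3.30-fold lower in WT L8 than in WT L0 (7.64e-05). Clcf1 changed by -1.503 ± 0.380 in WT L8 (0.0137), where its tested probe was above background on 1 of 2 arrays. Counting any of its probes, Clcf1 was above background on all 12 arrays.

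On the receiving side of IL-6 signalling, of 10 tested receptor and signalling genes, 1 was higher and 1 lower in YYFF L8 against YYFF L0, and 3 were higher and 2 lower in WT L8 against WT L0. Beside the shares over all genes (17.1% higher and 19.3% lower in YYFF L8, 18.4% and 17.7% in WT L8), these counts are too small to set the list apart. The oncostatin M receptor Osmr changed by -0.59 ± 0.13 in YYFF L8 (adjusted p = 0.00672) and -0.66 ± 0.13 in WT L8 (0.00424). Socs3, the feedback inhibitor of the pathway, rose by 0.45 ± 0.11 in YYFF L8 (0.0101), and the transcription factor Stat3 by 0.72 ± 0.12 in WT L8 (0.00167). None of the 21 chemokine receptors on the array was tested: 19 were above background on no array, Cxcr2, Cxcr3, Cxcr4, Ccr2 and Cx3cr1 among them, and Cxcr6 and Ackr4 were above it on 1 array each.

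The NF-kB pathway controls many chemokine genes. Of 22 tested genes of the pathway, 3 were higher and 9 lower in YYFF L8 against YYFF L0 (median -0.28), and 4 higher and 1 lower in WT L8 against WT L0 (median -0.03). Over all genes 17.1% were higher and 19.3% lower in YYFF L8, and 18.4% and 17.7% in WT L8. The counts of higher genes were near these shares in both clones. The count of lower genes was above the share in YYFF L8 (9 of 22) and below it in WT L8 (1 of 22). The microbial pattern receptor Tlr2 changed by -3.08 ± 0.29 in YYFF L8 (adjusted p = 4.8e-05), Relb by -1.42 ± 0.24 (0.00177) and the kinase Map3k14 by -1.18 ± 0.22 (0.00251), and Nfkb2 rose by 1.16 ± 0.29 (0.0123). Relb was above background on 1 of 2 YYFF L8 arrays, which read 5.59 and 6.40. In WT L8, Nfkbie was at least 1.73-fold higher (0.0112), and Tnip1 (0.90 ± 0.11, 0.000326) and Tlr4 (0.81 ± 0.16, 0.00364) rose. The clone difference in the 8-round change was called for 7 of the 22, 0 more positive and 7 more negative in YYFF, with 14.4% and 17.5% over all genes.

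For each detected member the tested genes with the highest Pearson r over the 12 arrays are named as a description, since arrays of a group share their cells. Ccl5 ran closest to Oasl2 (r = 0.991), Igtp (0.985) and Irgm2 (0.984), which are interferon-inducible genes, and Cxcl10 to Oasl1 (0.971), another of them, and Utp4 (0.960). Cxcl12 ran closest to the actin-bundling gene Fscn1 (0.984), Psme1 (0.983) and Foxq1 (0.981). Ppbp ran closest to Tcf7l1 (0.980), Cxcl1 to Rin2 (0.973), Cxcl5 to Gcnt1 (0.979) and Cx3cl1 to Fam160a2 (0.975). The neighbours Ccl2 and Ccl7 ran closest to different genes, Nans (0.960) and Ank (0.978).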

How the data were processed

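Total RNA of 12 samples was hybridised to Illumina mouse bead arrays. Per the file headers, the deposited non-normalized table gives a mean bead intensity and a detection p-value for 25697 probes on each array. The lowest intensities, 34.1 to 40.8, show no background subtraction. The authors' processed table holds intensities too; 11 of 12 columns share a median of 80.2, and the remaining column, WT L0 replicate 2, holds the values of the non-normalized table, so it served only as an alternative. The submitters' processing notes name limma; the software and build behind the tables are not given in the sources used here.

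Intensities were corrected by normexp (offset 16, the level of the negative controls being estimated from the detection p-values). Quantile normalization and log2 followed, in limma 3.58.1 (R 4.3.3). Probes with a detection p under 0.05 on at least 2 of 12 arrays (12974) were kept, and the brightest probe of each gene on average was tested (8891 genes). The platform annotation gave 1 symbol to 23978 probes, more than 1 to 0 probes and no symbol to 1719. Symbols were updated by Entrez ID (23962 probes) or accession (9) to RefSeq GRCm38.p6. The model had 1 coefficient per group and no block (6 residual and 2.91 prior degrees of freedom), 11 comparisons and Benjamini-Hochberg adjustment over all genes, with a threshold of 0.05. The offset makes the fold changes of dim genes too small.

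Where no array of a group showed a gene above background, its fold is a bound: the bright group's mean is set against the dim group's, with each dim array at its own signal or at its lowest signal above background, whichever is higher. A marker list's summed signal is the log2 of the sum of its genes' normalized signals. The number of arrays limits the precision.

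Genes named are all members; per list, up to 4 largest called changes in YYFF L8 and in WT L8 against L0, of which a part is given; and the 3 genes most correlated with each member above background on at least 6 arrays, of which some are given. Others, such as neighbours in the gene order, the receptors and the markers at background, were chosen after their values were seen. The lists were other chemokines, chemokine receptors, IL-6 family ligands, IL-6 receptors and signalling, NF-kB, interferon signalling, and fibroblast, leukocyte, megakaryocyte and platelet, endothelial and epithelial markers. Members and lists were chosen with earlier results of these data known. On simulated data for YYFF L8 against YYFF L0 (8891 genes), 67, 67 and 66 genes changed by log2 0.5, 1 and 2. The model found 14.9%, 88.1% and 100% of them. The measured arrays had 3234 genes called in that comparison, so the adjusted threshold was less strict there and these shares need not hold. Replicate numbers come from the titles; they match those in the descriptions in 3 of 6 groups.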

Additional observations from a re-analysis of the deposited data

Results flagged for a closer look

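For 12 member changes the interaction term between clone and laminin rounds passed the threshold in limma, so the change differed between YYFF and WT (the YYFF change minus the WT change, log2). Over 4 rounds these were Cxcl12 (-3.61), Cxcl1 (-1.49), Ppbp (-2.78), Ccl5 (-3.73) and Cx3cl1 (-3.43). Over 8 rounds they were Cxcl12 (-5.34), Cxcl1 (-2.01), Cxcl10 (3.47), Ppbp (-5.23), Ccl2 (-0.89), Ccl7 (-0.99) and Cx3cl1 (-3.46).

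They fall into kinds by what each clone did. Ppbp moved in opposite directions, and Cxcl12 fell in YYFF with no called change of its brightest probe in WT. Ccl2 and Ccl7 rose in both clones over 8 rounds, by 1.12 and 1.11 in YYFF and by 2.01 and 2.10 in WT. For Ccl5 the term was called after 4 rounds and not after 8 (0.85, adjusted p = 0.106), since YYFF L8 and WT L8 were both low. Groups of 2 arrays are too small to test for a stray array.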

How the results depend on the processing

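Of 99 member changes tested, 66 were called, and 53 of those kept their direction and their call in all 22 settings run; of the 33 not called, 11 were called in at least 1 setting, and no called change reversed. The members called in YYFF L8 against YYFF L4 went to 0 when only those 4 arrays were fitted with limma, against 3 with all 12 arrays; at an unadjusted p under 0.05 there were 3 members then, and the genes called over the array were 0 against 128, with 1082 at an unadjusted p under 0.05. Other settings gave 69 (median scaling), 195 (stricter detection filter) and 267 (intensity trend) genes there, and 35 (without YYFF L4 replicate 1) to 213 (without YYFF L8 replicate 2) with 1 array left out. With median scaling the genes called were 1789 against 2803 in YYFF L4 and 2068 against 3212 in WT L8 (each against L0), 683 against 1376 in WT L4, 865 against 1745 in WT L8 against WT L4, 1418 against 2397 in YYFF L0 against WT L0, and 1295 against 2109 and 1753 against 2831 for the clone differences at L4 and L8. With only the compared arrays fitted they were 490 in WT L4 against WT L0 and 890 in WT L8 against WT L4. With 1 array left out they reached down to 740 in WT L4 against WT L0 (without WT L0 replicate 1), 887 in WT L8 against WT L4 (without WT L8 replicate 2) and 1505 in YYFF L0 against WT L0 (without YYFF L0 replicate 1). Median scaling put 36.5% of the called genes on the higher side in YYFF L8 against YYFF L0, against 47.0% with quantile normalization, and 34.6% against 45.1% for the clone difference at L8.

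The labels do not say that replicate numbers mark a shared culture or day. Over 15 pairs of groups, same-numbered arrays correlated in their deviations with r of 0.02 to 0.35 by the titles' numbers, with 13 over 0.1, and -0.35 to 0.23 by the descriptions'. Since 2 of the 15 were not over 0.1 and each group has 2 arrays, the numbers were not taken to pair the arrays, though the correlations by the titles' numbers were above 0 in all 15. With the titles' numbers as a replicate block, 5 more member changes were called and 0 lost: Cxcl12 in WT L4 against WT L0 (adjusted p = 0.032), Cx3cl1 in WT L8 against WT L0 (0.0314), Cxcl1 in WT L8 against WT L4 (0.037), Cxcl5 in YYFF L4 against WT L4 (0.0361) and Ccl7 in YYFF L0 against WT L0 (0.0296). The genes called in YYFF L8 against YYFF L4 were 175. With the descriptions' numbers as a replicate block, 7 members were called in YYFF L8 against WT L8, with Ccl5 (0.0547) and Ccl7 (0.0651) lost. With 2 arrays per group, small changes can be missed. In the simulated data most log2 changes of 0.5 were missed, but far fewer genes were changed there than were called on the measured arrays. The simulation thus does not give the share missed here.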

Other observations

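Other chemokine ligands of the array were mostly at background. Of 26, 21 were above background on no array, among them Cxcl9, Cxcl11, Ccl3, Ccl4 and Ccl20, and 2 (Ccl25 and Ccl27a) on all 12. Ccl27a, known as a skin chemokine, was lower after 8 rounds in both clones, with changes of -1.26 ± 0.10 in YYFF (adjusted p = 1.73e-05) and -1.08 ± 0.10 in WT (7.25e-05). Of the 5 tested, 1 was higher and 2 lower in YYFF L8 against YYFF L0, and 2 higher and 1 lower in WT L8 against WT L0, beside 17.1% and 19.3% over all genes in YYFF L8 and 18.4% and 17.7% in WT L8. With 5 genes these counts cannot be told from those shares.

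Of 10 tested fibroblast markers, 1 was higher and 4 lower in YYFF L8 against YYFF L0, with 17.1% and 19.3% over all genes. In WT L8 against WT L0, 2 were higher and 1 lower, with 18.4% and 17.7% over all genes. In YYFF L0 against WT L0, where Cxcl12 was lower, 6 were higher and 0 lower, with 14.7% and 12.2% over all genes. Col1a1, a chain of type I collagen, differed by 2.72 ± 0.15 between the clones at L0 (YYFF minus WT, adjusted p = 2.52e-06). Its mean log2 signal in YYFF was 11.45 at L0 and 9.71 at L8. Vim, the intermediate filament vimentin, was the 1 marker called higher in YYFF L8 against YYFF L0 (0.34 ± 0.12, 0.0463). The marker with the largest change in YYFF L8, Pdgfra, a growth factor receptor of mesenchymal cells, had mean log2 signals of 9.36 at L0, 5.73 at L4 and 5.31 at L8 in YYFF, against 9.92 at L0, 10.31 at L4 and 9.42 at L8 in WT. Its change of -4.05 ± 0.22 in YYFF L8 against YYFF L0 (adjusted p = 1.49e-06) had the direction of the Cxcl12 change, and its part in that result was not tested. Of 7 endothelial markers 6, and of 6 epithelial markers 3, were above background on no array. The epithelial keratin Krt14 was at least 1.75-fold higher in YYFF L8 than in YYFF L0 (0.00095). Krt8 differed by 0.52 ± 0.12 there (0.00836), but was near background, above it on 0 YYFF L0 arrays and on 1 YYFF L8 array. The endothelial receptor Tek was at least 1.49-fold lower in YYFF L8 than in YYFF L0 (0.0141).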
